A study of Mus musculus with 12 samples.

Results

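The 26S proteasome is the protease that degrades proteins tagged with chains of ubiquitin. Its 20S core is a barrel of alpha and beta rings that keeps the catalytic sites inside, and its 19S cap has a base of ATPases that unfold substrates and a lid that removes their ubiquitin. Assembly chaperones help build core and base and then leave, other activators can dock in place of the cap, and neurons depend on the complex for turnover of synaptic proteins and of misfolded proteins. The genes of the complex were described here in cultured mouse entorhinal cortex (EC) neurons in which the level of the chromatin protein DEK was changed. They were chosen by symbol: every gene whose symbol begins with Psm, a letter A to G and a digit, leaving out the immunoproteasome genes Psmb8, Psmb9 and Psmb10, which gave 47 of the 24100 genes measured.

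RNA was sequenced from primary EC neurons of C57BL/6J embryos at embryonic day 17, treated at 7 days in vitro with an AAV1 virus at 1e+10 genomes per ml and collected 4 days later, with 200 ng of RNA for each library. 4 groups of 3 wells were compared: Dek silencing (AAV1-mCherry-U6-mDEK-shRNA), its scrambled hairpin control (AAV1-mCherry-U6-scrmb-shRNA), Dek overexpression (AAV1-hSyn1-mDEK-IRES-mCherry) and its empty vector control (AAV1-hSyn1-mCherry-WPRE). All cultures thus carried a virus with mCherry. The U6 promoter drives a hairpin in any infected cell, the hSyn1 promoter is active in neurons, and each control shares a promoter with its own treatment only. Separate dissections for the wells of a group are not stated, so p-values measure only the spread between these wells, which may be technical. In bulk RNA, fewer cells of a type and less RNA per cell cannot be told apart.

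The counts summed to between 15679567 and 18933382 per library, and the 47 genes took 0.599 to 0.631% of them in silencing, 0.628 to 0.641% in scrambled, 0.542 to 0.568% in overexpression and 0.543 to 0.556% in empty vector libraries. Levels are in CPM, a gene's share of its library in parts per 1e+06 after TMM scaling of library sizes. Fold changes (log2FC, with their SE) and adjusted p-values are from the quasi-likelihood F test of edgeR on 3 libraries against 3, adjusted over all genes tested, and a gene was taken as changed at an adjusted p below 0.05. Dek itself was at 7.98, 6.65 and 8.62 CPM in silencing libraries, against 35.2, 36.6 and 36.4 CPM in scrambled libraries (log2FC −2.23, SE 0.10, adjusted p = 1.3e-08), and at 156, 129 and 143 CPM in overexpression libraries, against 36.0, 38.8 and 41.1 CPM in empty vector libraries (log2FC 1.89, SE 0.08, adjusted p = 1.4e-08). Both viruses thus changed their target without overlap between groups.

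Of the 47 genes, 45 passed the filter on low counts in each comparison. Psma8, which encodes the alpha subunit of a proteasome of the testis, had 7 counts in all 12 libraries together, and Psme2b, a near copy of the activator gene Psme2, had 8.09. Neither was tested. Psmb11, the beta subunit particular to thymus epithelium, was tested at 0.533 to 1.44 CPM, too low for a firm statement. Psmc3ip matches the symbol rule but encodes a factor of meiotic recombination and is no subunit, and its values are named apart in each comparison. Per kb of transcript, levels in empty vector libraries were 215 CPM for Psmb6, 174 for Psmb7 and 169 for Psmb5, the catalytic subunits. They were 18.4 to 26.0 CPM per kb for the core chaperones Psmg1 to Psmg4 and 12.9 to 15.5 for the base chaperones, so the catalytic subunits stood above the factors that assemble the complex.

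Sequences are given first for the hairpin target and for the 4 genes that fell furthest below both controls. The target of the hairpin lies in exon 6 of 11 of Dek, in the coding sequence, at chr13:47099377-47099397 on the minus strand of GRCm38. The stretch AAGAGGA, bases 11 to 17 of that target, was also found in the GENCODE transcript of 11 of the 45 tested genes. By the hairpin sequence, AAGAGGA lies opposite inner bases of the hairpin strand that pairs with Dek. It does not lie opposite the first bases of that strand, so its matches are not matches to the start of the strand. The windows below come from GENCODE transcripts on GRCm38, 5′ to 3′, and capitals mark AAGAGGA with any neighbouring bases that continue the identity with the Dek target.
Dek target, chromosome 13, minus strand: cgaactcgtgAAGAGGAtctt
Psma4, chr9:54957715-54957735, plus strand, exon 9 of 9, coding: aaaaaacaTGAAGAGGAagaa
Psmc1, chromosome 12, plus strand, across the junction of exons 4 and 5 of 11, coding: gaagaaaagcAAGAGGAggaa
Psmd1, chr1:86137044-86137064, plus strand, exon 24 of 25, coding: ccaaagatTGAAGAGGAagag
Psma3, chr12:70974621-70974641, plus strand, exon 1 of 11, before the start codon: gcAAGAGGAaaggctattggt

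In Psma4 and Psmd1 the identity with the Dek target ran over bases 9 to 17, and in Psmc1 and Psma3 over bases 11 to 17. The Psmc1 window is made of chr12:100114948-100114962 and chr12:100115420-100115425. The 7 letters are common: they were found in the transcript of 46.79% of the 13631 tested genes with a transcript, whose median log2FC in silencing was −0.16, and genes without them had a median of 0.12. Of the 11 genes of the set with AAGAGGA, 7 were lower in silencing and 1, Psmc3ip, which is no subunit, was higher. Without Psmc3ip, 7 of 10 were lower and none higher (median log2FC −0.29). Of the 34 without it, 13 were lower and 6 higher (median −0.03). Of 12 members of the set with at least 8 bases of the target in a row 4 were lower (median 0.02), and of 6 with at least 9 bases 2 were lower (median 0.05). Over all genes with a transcript, 29.1% were lower, against 41.4% of those with AAGAGGA, 36.6% of those with at least 8 bases in a row and 42.7% of those with at least 9 (median −0.18). In annotated 3′ UTRs AAGAGGA occurred in Psmd4 and Psmb11 only of the 47 genes. The heptamer opposite the start of the hairpin strand that pairs with Dek was counted in 3′ UTRs. Of the 47 genes it occurred there in Psmb1, Psmd9, Psmc3ip and Psma8 only, and thus not in Psma4, Psmc1, Psmd1 or Psma3. In silencing Psmb1 and Psmd9 were lower and Psmc3ip higher, and Psma8 was not tested. For AAGAGGA the whole transcript was searched, so longer transcripts have more places for a match. None of these shares and medians was adjusted for transcript length or GC content. AAGAGGA was picked with results of these data known, so these shares are a description. Whether the hairpin acts on any of these transcripts was not tested.

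The first comparison asked what silencing of Dek did to the proteasome genes relative to the scrambled hairpin. Of 45 genes tested, Psmc3ip included, 20 were lower and 7 higher in silencing, with a median log2FC of −0.10, against −0.0011 over all 14232 genes tested. Among all genes, 28.5% were lower and 26.2% higher, against 44.4% lower and 15.6% higher in the set. Falls were called in 5 of 7 alpha genes, 4 of 6 ATPases, the other 3 base genes and 4 of 8 lid genes, with 2 in the beta ring and 2 among chaperones, and the activators and PI31 held rises only. With library size alone in place of TMM scaling, which moved the median of all genes to 0.0976, the counts were 12 lower and 13 higher. Against the empty vector control, set out further on, they were 7 lower and 18 higher. In every alternative that kept the scrambled control, 12 of the 20 falls (Psma3, Psma4, Psma7, Psmb1, Psmc1, Psmc3, Psmc5, Psmd1, Psmd4, Psmd7, Psmd12 and Psmd14) and 4 of the 7 rises (Psmf1, Psmd5, Psmd13 and Psmc3ip) stayed past the threshold.

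**Figure D1:**
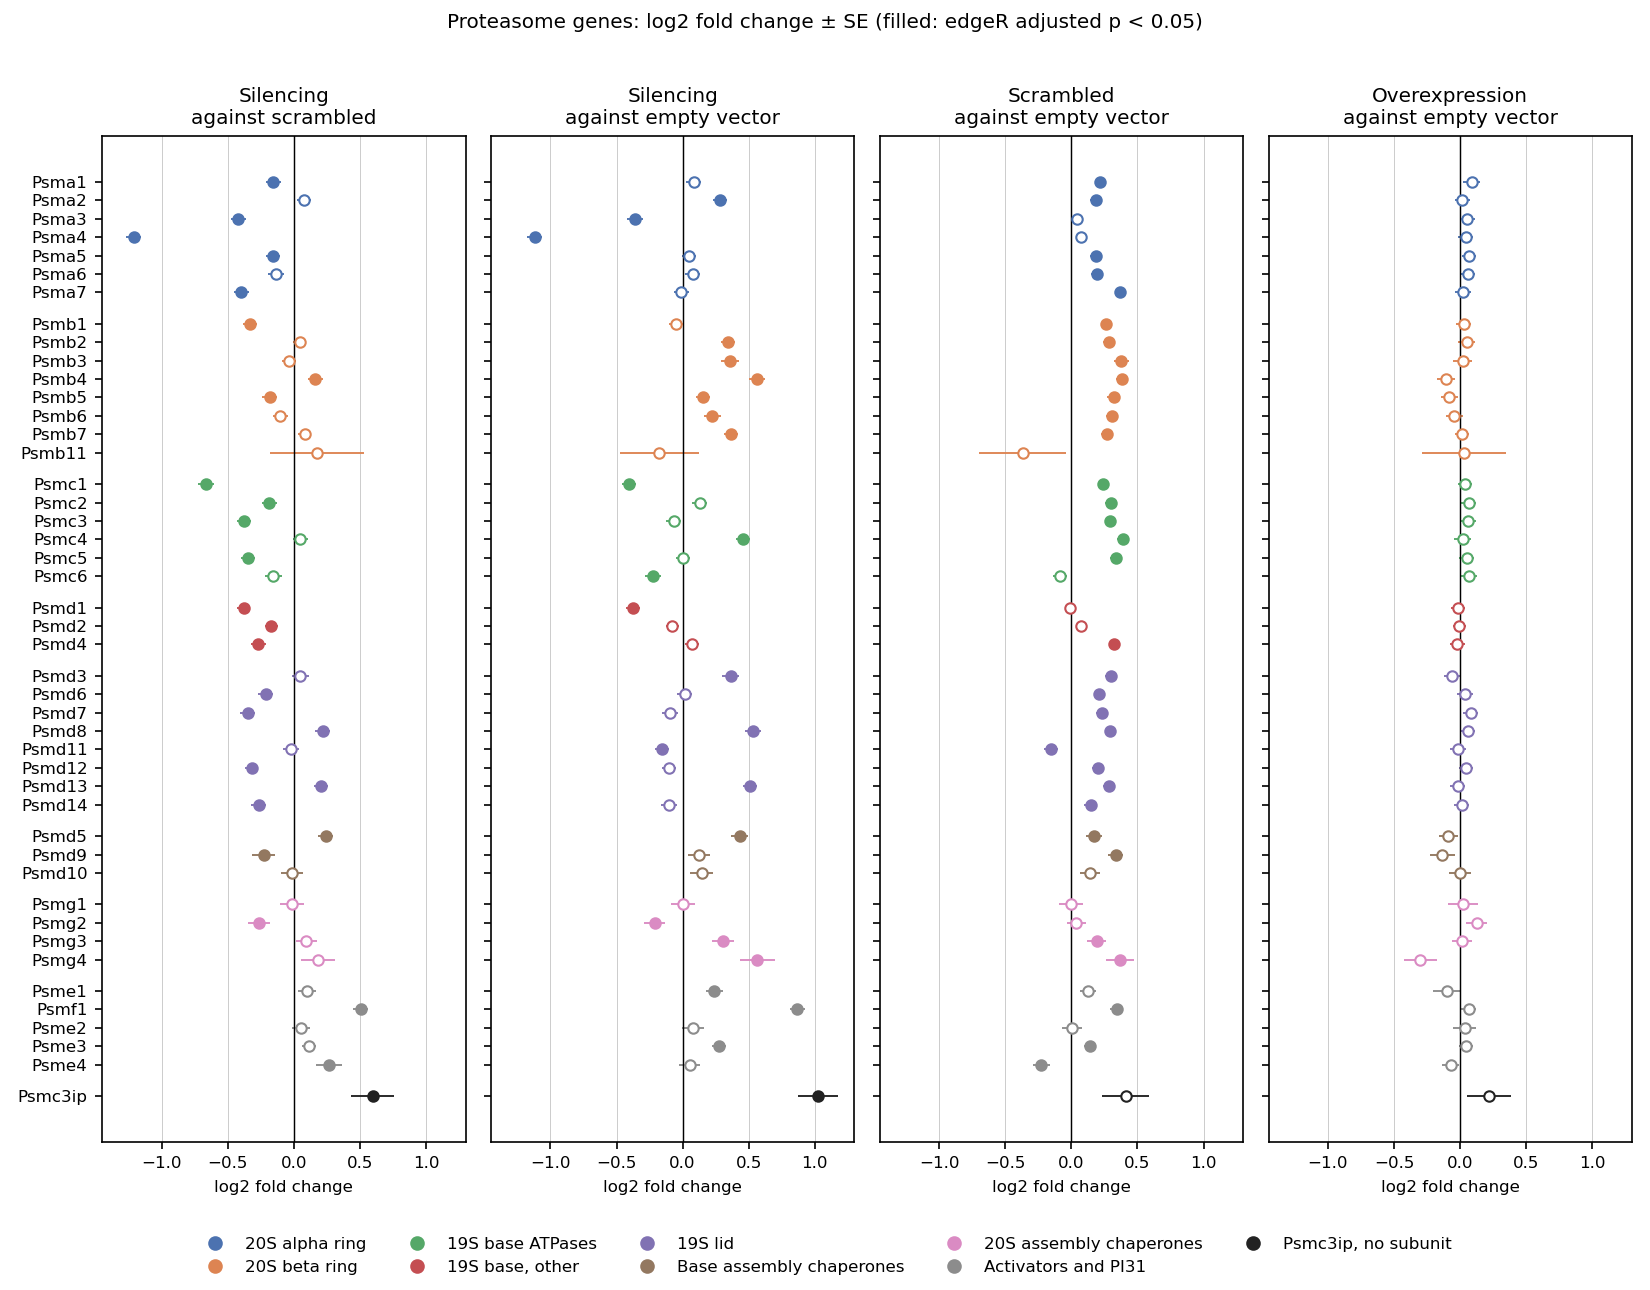
log2 fold change ± SE of the 45 tested genes, grouped by role from top to bottom, in 4 comparisons of 3 libraries with 3. Filled points had an edgeR adjusted p below 0.05: 27 in silencing against scrambled, 25 in silencing against empty vector, 33 in scrambled against empty vector and 0 in overexpression against empty vector, and Psma4 is the point farthest left in both silencing panels.

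The alpha ring forms the gate and the outer faces of the core, and 5 of its 7 tested genes were lower in silencing, with none higher. Psma4 was at 65.5, 62.0 and 68.7 CPM in silencing, against 151, 149 and 150.3 CPM in scrambled and 138, 145 and 144 CPM in empty vector libraries. Every silenced library was below all others, at a fold of 0.432 (log2FC −1.21, SE 0.06, adjusted p = 1.5e-08), and the value against empty vector was much the same (log2FC −1.12, SE 0.06, adjusted p = 5.6e-09). Psma4 is on chromosome 9 from 54950790 to 54958030, plus strand, and 114 of its 1165 exon bases are shared with AY074887 on the opposite strand. Psma3 was at 142, 130.1 and 142 CPM in silencing, against 182, 186 and 179 CPM in scrambled and 168, 181 and 182 CPM in empty vector libraries. It too was lower than scrambled (log2FC −0.42, SE 0.05, adjusted p = 4.3e-05) and lower than empty vector (log2FC −0.36, SE 0.06, adjusted p = 0.00013), without overlap.

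Psma7 was at 140.0, 136 and 152 CPM in silencing, against 185, 188 and 186 CPM in scrambled and 141, 146 and 146 CPM in empty vector libraries. Its scrambled libraries stood above both other groups, so that it was lower than scrambled (log2FC −0.40, SE 0.06, adjusted p = 9.7e-05) with a log2FC of −0.01 against empty vector (adjusted p = 0.886). Psma5 had 142, 134 and 141 CPM in silencing, against 151, 155 and 154 CPM in scrambled and 132, 134 and 139 CPM in empty vector libraries. Psma1 had 143, 132 and 126 CPM in silencing, against 147, 149 and 146 CPM in scrambled and 122, 130.4 and 126 CPM in empty vector libraries. Both were lower than scrambled by a small margin (log2FC −0.16 and −0.15, adjusted p = 0.0211 and 0.0346). Both calls were lost under DESeq2, with library size alone and when single libraries were left out. Psma2 (log2FC 0.08) and Psma6 (−0.14, adjusted p = 0.0635) did not pass, though with the replicate number as a block Psma6 did, at −0.14 (adjusted p = 0.0342).

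In the beta ring, which holds the catalytic sites, 2 of 8 genes were lower and 1 higher, and the median log2FC was 0.0029. Psmb5, the chymotrypsin-like subunit, was at 171, 165 and 172 CPM in silencing, against 202, 186 and 182 CPM in scrambled and 151, 149 and 157 CPM in empty vector libraries. Silenced libraries lay between the controls, lower than scrambled (log2FC −0.18, SE 0.06, adjusted p = 0.0154) and higher than empty vector (log2FC 0.15, SE 0.05, adjusted p = 0.0184). Without silencing replicate 2 or scrambled replicate 1, and with library size alone, the first of these calls was lost. Psmb6, the caspase-like subunit, was at 204, 187 and 209 CPM in silencing, against 214, 209 and 214 CPM in scrambled and 165, 166 and 183 CPM in empty vector libraries. Psmb7, the trypsin-like subunit, was at 264, 253 and 259 CPM in silencing, against 244, 239 and 244 CPM in scrambled and 198, 196 and 210.0 CPM in empty vector libraries. Neither passed against scrambled (log2FC −0.10, SE 0.06, and 0.08, SE 0.05), and both were higher than empty vector (0.22 and 0.36).

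The structural subunit Psmb1 was at 224, 212 and 229 CPM in silencing, against 276, 281 and 271 CPM in scrambled and 224, 239 and 226 CPM in empty vector libraries. It was lower than scrambled (log2FC −0.33, SE 0.05, adjusted p = 0.00018), and its silenced and empty vector libraries overlapped. Psmb4, a subunit without a catalytic site, ran the other way, at 222, 231 and 252 CPM in silencing, against 214, 208 and 202 CPM in scrambled and 159.5, 164 and 156 CPM in empty vector libraries. The 3 groups did not overlap and silencing was highest (log2FC 0.16, SE 0.06, adjusted p = 0.036). The margin over scrambled was lost with a correction for GC content and length and in 4 of the 6 fits that left out 1 library. Psmb2 and Psmb3 had log2FC of 0.04 and −0.04, which did not pass.

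The 6 ATPases of the base form the ring that pulls substrates into the core, and 4 were lower, with none higher and a median log2FC of −0.27. Psmc1, whose tail helps open the gate of the alpha ring in yeast, was at 184, 163 and 175 CPM in silencing, against 279, 261 and 280.2 CPM in scrambled and 231, 229 and 234 CPM in empty vector libraries. It had the largest fall after Psma4 (log2FC −0.66, SE 0.06, adjusted p = 1.5e-06), and silenced libraries were below both controls without overlap (log2FC −0.41, SE 0.06, adjusted p = 2.8e-05). Psmc3 was at 159.9, 158 and 171 CPM in silencing, against 208, 209.9 and 212 CPM in scrambled and 177, 169.8 and 167 CPM in empty vector libraries. Psmc5 was at 149, 141 and 150.4 CPM in silencing, against 189.9, 188 and 179 CPM in scrambled and 149, 144 and 146 CPM in empty vector libraries. Both were lower than scrambled (log2FC −0.38, SE 0.05, adjusted p = 8.1e-05 for Psmc3, and log2FC −0.35, SE 0.05, adjusted p = 0.00015 for Psmc5) and overlapped empty vector, with log2FC of −0.07 and 0.0056 there. Psmc2 was at 154, 139 and 155 CPM in silencing, against 172, 169 and 163 CPM in scrambled and 138, 139 and 132 CPM in empty vector libraries. It was lower than scrambled by less (log2FC −0.19, SE 0.06, adjusted p = 0.0157). That call was lost with library size alone and without silencing replicate 2 or scrambled replicate 2. Psmc4 (0.05) and Psmc6 (−0.16, adjusted p = 0.0592) did not pass. With the replicate block Psmc6 passed at −0.16 (adjusted p = 0.0149).

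The remaining base genes were all lower than scrambled. Psmd1, a scaffold of the base, was at 207, 193 and 188 CPM in silencing, against 253, 248 and 258 CPM in scrambled and 256, 255 and 252 CPM in empty vector libraries. Silenced libraries were below both controls (log2FC −0.38, SE 0.05, adjusted p = 6.8e-05 against scrambled, and −0.37 against empty vector), while 301 of its 3112 exon bases are shared with Gm21972 on the same strand, so counts of the pair may be split. Psmd4, a receptor for ubiquitin chains, was at 165, 151 and 168 CPM in silencing, against 198, 191 and 189 CPM in scrambled and 153, 155 and 153 CPM in empty vector libraries. Psmd2, the scaffold that in yeast docks ubiquitin shuttles, was at 419, 397 and 403 CPM in silencing, against 461, 458 and 438 CPM in scrambled and 429, 428 and 429 CPM in empty vector libraries. Both were lower than scrambled without overlap (log2FC −0.27, SE 0.06, adjusted p = 0.0016 for Psmd4, and log2FC −0.17, SE 0.05, adjusted p = 0.00895 for Psmd2), and the call of Psmd2 was lost with library size alone.

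In the lid 4 of 8 genes were lower and 2 higher. Psmd14, the deubiquitinase that cuts chains from substrates, was at 128, 116 and 126 CPM in silencing, against 152, 144 and 145 CPM in scrambled and 125, 139 and 134 CPM in empty vector libraries. Its partner Psmd7 was at 106, 109 and 117 CPM in silencing, against 135, 141 and 143 CPM in scrambled and 124, 117 and 116 CPM in empty vector libraries. Both fell relative to scrambled without overlap (log2FC −0.26, SE 0.06, adjusted p = 0.00178 for Psmd14, and log2FC −0.35, SE 0.06, adjusted p = 0.00032 for Psmd7). The scaffold subunits Psmd12 and Psmd6 had log2FC of −0.32 (SE 0.05) and −0.21 (SE 0.06). Psmd12 was at 101, 98.7 and 102 CPM in silencing, against 124, 124 and 124 CPM in scrambled and 109.8, 108 and 106 CPM in empty vector libraries. Psmd6 was at 120.4, 116 and 129 CPM in silencing, against 144, 139 and 137 CPM in scrambled and 119.7, 122 and 120.3 CPM in empty vector libraries. Silenced libraries of both were below every scrambled library, and the call of Psmd6 was lost with library size alone.

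Psmd8 and Psmd13 rose in the same lid. Psmd8 was at 196, 209 and 219 CPM in silencing, against 173, 177 and 180.4 CPM in scrambled and 148, 143 and 142 CPM in empty vector libraries. Psmd13 was at 213, 205 and 218 CPM in silencing, against 189.5, 178 and 178 CPM in scrambled and 142, 148 and 157 CPM in empty vector libraries. For both the 3 groups were in the same order without overlap, with silencing highest (log2FC 0.22, SE 0.06, adjusted p = 0.0067 for Psmd8, and log2FC 0.21, SE 0.05, adjusted p = 0.00533 for Psmd13). The call of Psmd8 was lost with a correction for GC content and length. Psmd3 (0.05) and Psmd11 (−0.02) did not pass.

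**Figure D2:**
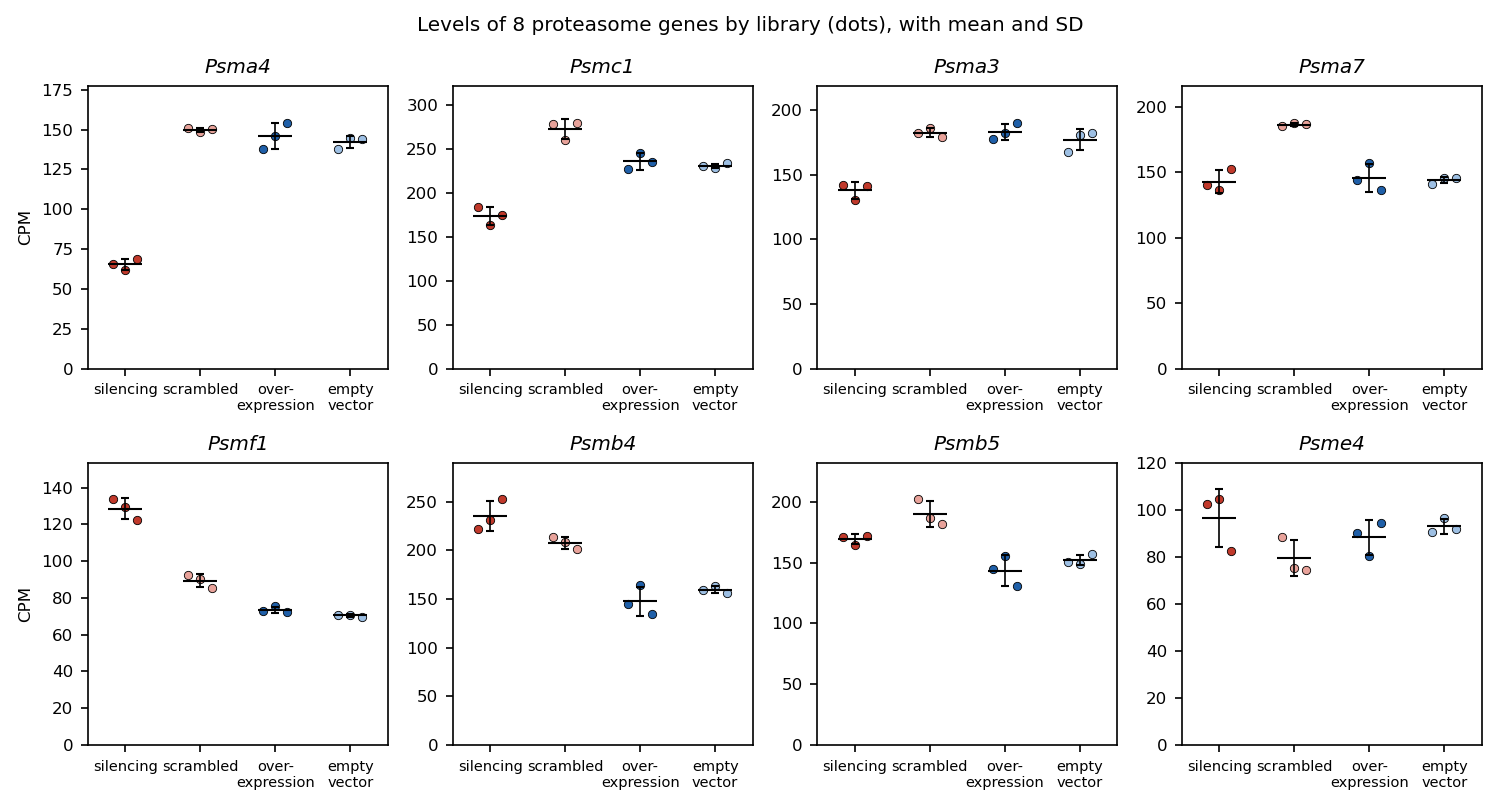
CPM of 8 proteasome genes in each of the 12 libraries (dots), with the mean and SD of each group of 3, on axes that start at 0. Psma4 is at 62.0 to 68.7 CPM in silencing and above 137 CPM in all other libraries, Psmf1 is highest in silencing, and Psma7 and Psmb5 are highest in scrambled.

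Of the 7 assembly chaperones 1 was higher (Psmd5), 2 were lower (Psmd9 and Psmg2) and 4 did not pass. Of the base chaperones, which escort the ATPases, Psmd5 was at 76.3, 77.1 and 76.4 CPM in silencing, against 65.3, 64.5 and 62.6 CPM in scrambled and 56.1, 53.8 and 60.7 CPM in empty vector libraries, and was higher (log2FC 0.24, SE 0.06, adjusted p = 0.00288). Psmd9 was at 42.0, 39.8 and 49.8 CPM in silencing, against 51.6, 50.6 and 50.6 CPM in scrambled and 41.7, 39.5 and 39.8 CPM in empty vector libraries. It was lower (log2FC −0.23, SE 0.09, adjusted p = 0.0382). That call was lost under DESeq2, with library size alone and in 5 of the 6 fits that left out 1 library. Psmd10, known as gankyrin, was at 23.4, 21.9 and 20.7 CPM in silencing, against 21.4, 22.2 and 22.3 CPM in scrambled and 19.1, 20.03 and 20.7 CPM in empty vector libraries (log2FC −0.01). Silencing and scrambled did not overlap for Psmd5, were parted by a narrow gap for Psmd9, whose silenced and empty vector libraries overlapped, and overlapped for Psmd10.

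The core chaperones act in the pairs Psmg1 with Psmg2 and Psmg3 with Psmg4 when the alpha ring is built. Psmg2 was at 21.5, 21.03 and 22.3 CPM in silencing, against 26.2, 26.5 and 24.4 CPM in scrambled and 25.9, 25.4 and 23.8 CPM in empty vector libraries. It was lower (log2FC −0.26, SE 0.08, adjusted p = 0.0152). That call was lost under DESeq2, with library size alone, and without silencing replicate 2 or scrambled replicate 2. The partner Psmg1 did not pass (log2FC −0.01, SE 0.09). Psmg1 was at 18.93, 18.91 and 19.9 CPM in silencing, against 17.5, 20.02 and 20.1 CPM in scrambled and 19.7, 17.6 and 20.5 CPM in empty vector libraries. Psmg3 was at 29.4, 25.9 and 29.6 CPM in silencing, against 26.96, 25.2 and 26.5 CPM in scrambled and 22.5, 23.8 and 22.5 CPM in empty vector libraries. Psmg4 was at 12.6, 17 and 16.9 CPM in silencing, against 13.7, 14.4 and 12.6 CPM in scrambled and 9.88, 10.0 and 11.6 CPM in empty vector libraries. Neither passed against scrambled (log2FC 0.10 and 0.18), and both were higher than empty vector (0.31, adjusted p = 0.00557, and 0.57, adjusted p = 0.00226). Of the exon bases of Psmg3, 26.8% are shared with Gm26938 on the same strand.

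Among activators and PI31, 2 of 5 tested genes were higher and none lower. Psmf1 encodes PI31, an inhibitor of the core in vitro that also serves as an adaptor for proteasome transport in axons. It was at 134, 129.7 and 122 CPM in silencing, against 92.4, 90.4 and 85.4 CPM in scrambled and 71.0, 70.6 and 69.8 CPM in empty vector libraries. The groups did not overlap, and it had the largest rise of the true proteasome genes, at log2FC 0.51, SE 0.06, adjusted p = 1.3e-05, and 0.87 against empty vector. Psme4, the activator of the nucleus that binds the ends of the core, was at 103, 105 and 82.7 CPM in silencing, against 88.6, 75.5 and 74.8 CPM in scrambled and 91.0, 97.0 and 92.0 CPM in empty vector libraries. It was higher than scrambled (log2FC 0.27, SE 0.10, adjusted p = 0.0439) with overlap between groups, a call lost in 4 of the 6 fits that left out 1 library, and at 0.05 against empty vector it did not pass.

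Psme1 and Psme2, the subunits of the interferon-inducible activator ring, and Psme3, which forms its nuclear relative, did not pass. Psme1 was at 86.4, 89.8 and 96.5 CPM in silencing, against 77.9, 90.0 and 84.4 CPM in scrambled and 79.1, 73.9 and 78.1 CPM in empty vector libraries. Psme2 was at 49.9, 45.8 and 49.1 CPM in silencing, against 47.6, 43.6 and 46.5 CPM in scrambled and 41.3, 45.1 and 50.9 CPM in empty vector libraries, and reads of its near copy Psme2b could be counted to it. Psme3 was at 147, 139 and 146 CPM in silencing, against 136, 126 and 134 CPM in scrambled and 116, 119 and 123 CPM in empty vector libraries. Their log2FC against scrambled were 0.10, 0.06 and 0.11, and Psme1 and Psme2 overlapped between the groups. Outside the complex, Psmc3ip was at 6.56, 6.48 and 6.81 CPM in silencing, against 3.69, 4.29 and 5.03 CPM in scrambled and 3.498, 3.26 and 3.00 CPM in empty vector libraries. It was higher without overlap (log2FC 0.60, SE 0.16, adjusted p = 0.00744), and 29.8% of its exon bases are shared with Mlx on the opposite strand.

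Sums over each role are plotted by library. All 47 genes together came to 5915 ± 161 CPM in silencing, against 6440.0 ± 70.3 CPM in scrambled and 5570.0 ± 69.9 CPM in empty vector libraries (mean ± SD, n = 3 each). The alpha ring summed to 959 ± 29.9 CPM in silencing, below both scrambled (1161 ± 6.67) and empty vector (1024 ± 29.4). Without Psma4, left out after its values were seen, the alpha sum was 893 ± 27.6 CPM in silencing, against 1011 ± 7.74 CPM in scrambled and 882 ± 25.7 CPM in empty vector libraries. The gap to empty vector thus rested on Psma4, and 4 of the 7 tested alpha genes had a positive log2FC against empty vector. The beta ring summed to 1386 ± 46.4 CPM in silencing, against 1426 ± 17.3 CPM in scrambled and 1151 ± 30.6 CPM in empty vector libraries, so that silenced cultures were near the scrambled level and above empty vector. The ATPases summed to 930.2 ± 38.6 CPM in silencing, against 1139 ± 26.2 CPM in scrambled and 957 ± 5.65 CPM in empty vector libraries. The other 3 base genes summed to 764 ± 25.5 CPM in silencing. Their sum was 898 ± 13.7 CPM in scrambled and 837 ± 1.56 CPM in empty vector libraries. Every silenced library was below all libraries of both controls in that sum. The lid summed to 1134 ± 46.3 CPM in silencing, against 1159 ± 12.8 CPM in scrambled and 997 ± 5.51 CPM in empty vector libraries. Activators and PI31 summed to 508 ± 11.7 CPM in silencing, above 431 ± 10.4 CPM in scrambled and 406 ± 7.91 CPM in empty vector libraries. Sums of CPM are weighted to the most abundant genes.

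**Figure D3:**
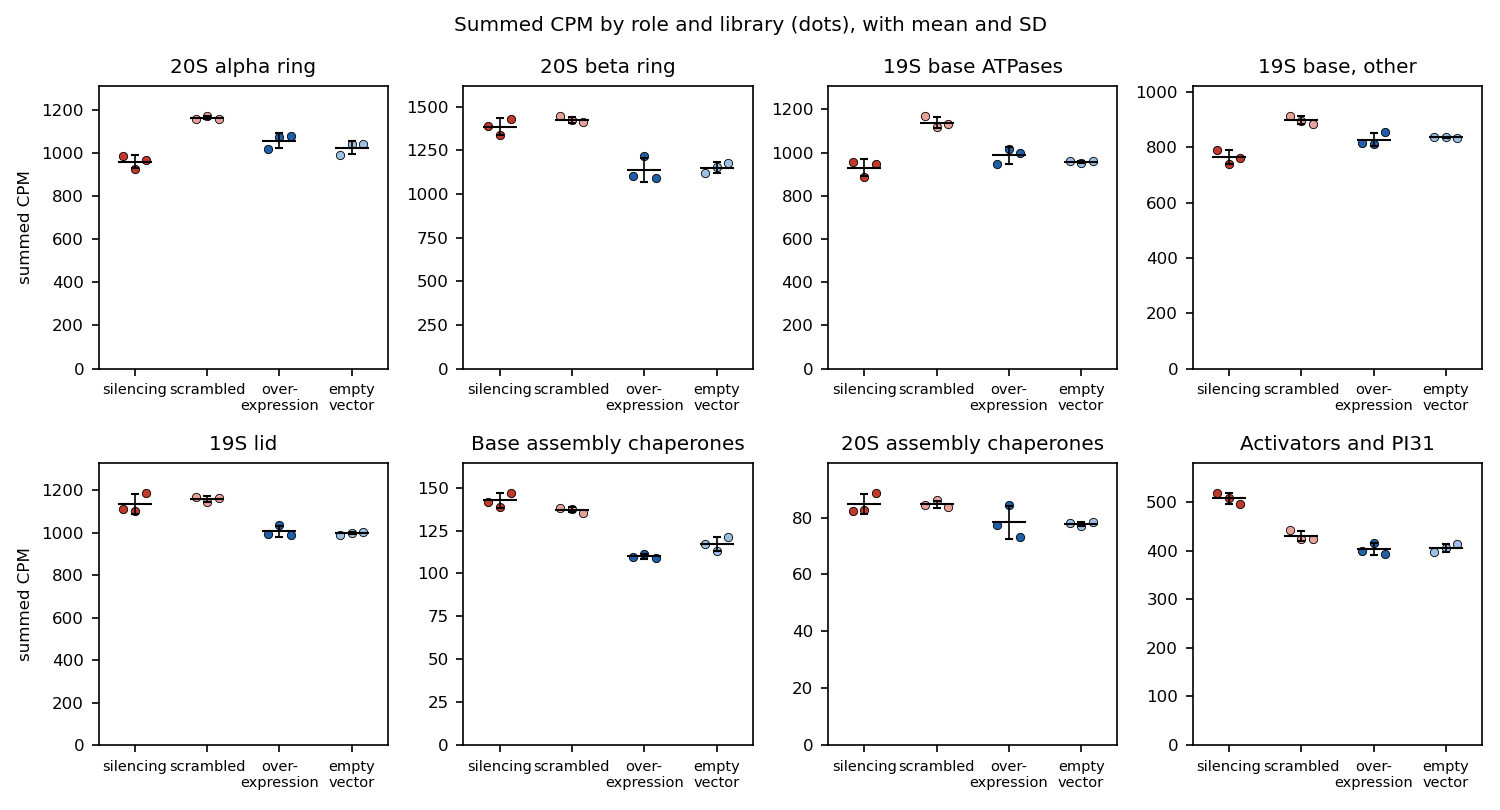
Summed CPM of the genes of each role in each of the 12 libraries (dots), with the mean and SD of each group of 3. Alpha ring and ATPase sums are highest in the 3 scrambled libraries, and the sum of activators and PI31 is highest in the 3 silenced libraries.

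The second comparison set the hairpin control against the other control, 2 viruses that differ in promoter and cargo and neither of which targets Dek. Of the 45 genes, 31 were higher in scrambled than in empty vector libraries and 2 lower, with a median log2FC of 0.22, against 0.01 over all 14096 genes tested. Among all genes 21.3% were higher and 21.8% lower. The rise took in 5 of 7 alpha genes, 7 of 8 beta genes, 5 of 6 ATPases and 7 of 8 lid genes, and 1 of the other 3 base genes (Psmd4). In 35 genes all 3 scrambled libraries were above all 3 empty vector libraries. The share of all genes with such a gap was not counted, so nothing is read from that count. For the 31 genes called higher and the 2 called lower, the 2 controls did not give 1 common level.

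The rises spanned log2FC 0.14 to 0.39. Psmc4 was at 172, 159 and 164 CPM in scrambled, against 125, 125 and 127 CPM in empty vector libraries (log2FC 0.39, SE 0.04, adjusted p = 1.5e-05). Psmb4 (0.38), Psmb3 (0.38), Psma7 (0.37), Psmg4 (0.37), Psmf1 (0.34), Psmc5 (0.34), Psmd9 (0.34), Psmd4 (0.32) and Psmb5 (0.32) followed it in log2FC. Psmb3 was at 151, 157 and 156 CPM in scrambled, against 109, 118 and 129 CPM in empty vector libraries. All 3 catalytic genes rose (log2FC 0.32 for Psmb5, 0.31 for Psmb6 and 0.27 for Psmb7). The 2 genes that fell were Psme4 (log2FC −0.23, SE 0.06, adjusted p = 0.0118) and the lid scaffold Psmd11, at 68.8, 66.6 and 73.2 CPM in scrambled, against 78.7, 76.0 and 76.9 CPM in empty vector libraries (log2FC −0.15, SE 0.05, adjusted p = 0.0308). Neither fall was called without scrambled replicate 2 or empty vector replicate 2, where 0 genes were lower. Of the 6 fits that left out 1 library, Psmd11 kept its call in 2 and Psme4 in 3. The call of Psmd11 was also lost under DESeq2 and with the replicate block. That of Psme4 was also lost with all 12 libraries in 1 fit and with a correction for GC content and length. Psma3, Psma4, Psmd1, Psmd2, Psmc6, Psmg1 and Psmg2 did not pass, and Psmc3ip was at 0.41 (adjusted p = 0.077).

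The number of rises depended on how GC content and length were treated. With a correction for GC content and length, 16 genes were higher and 2 lower (Psmd11 and Psme2), and the median log2FC was 0.0978. The tested genes had a median transcript length of 1440 bases, against 3112 over all genes tested, and a median GC content of 49.8%, against 50.4%. Those called higher in all alternatives run were 9 (Psma2, Psma7, Psmb1, Psmb4, Psmc2, Psmc4, Psmc5, Psmd9 and Psmf1). The catalytic genes were not among them: with the correction Psmb5 was at 0.03, Psmb6 at 0.01 and Psmb7 at 0.10. The same correction left silencing against scrambled at 23 lower and 6 higher.

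The silenced cultures were therefore also set against empty vector, which shares neither promoter nor hairpin with them, so that the change of virus and that of Dek cannot be told apart here. Of 45 genes 18 were higher and 7 lower, with a median log2FC of 0.08, against 33.5% lower and 34.0% higher over all 14292 genes tested. The 18 include Psmc3ip (log2FC 1.03), which is no subunit. The 7 lower genes were Psma4 (−1.12), Psmc1 (−0.41), Psmd1 (−0.37), Psma3 (−0.36), Psmc6 (−0.23), Psmg2 (−0.21) and Psmd11 (−0.16). Of these, Psma4, Psmc1, Psmd1, Psma3 and Psmg2 were lower than scrambled as well. In 13 genes (Psma1, Psma5, Psma7, Psmb1, Psmc2, Psmc3, Psmc5, Psmd4, Psmd6, Psmd7, Psmd12, Psmd14 and Psmd9) silencing was lower than scrambled and scrambled higher than empty vector, with no call between silencing and empty vector. In 5 genes (Psmb4, Psmd8, Psmd13, Psmd5 and Psmf1) each step was a rise. These comparisons share libraries, so the patterns are a listing of the same values from 3 sides. How many of all genes had the same patterns was not counted, so whether either pattern is particular to this set cannot be said.

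Overexpression of Dek was compared with the empty vector control, and none of the 45 genes passed the test. Over all 14089 genes tested 0.0071% were higher (Dek alone) and 0.0% lower. Without Psmc3ip (0.22), the log2FC lay between −0.30 (Psmg4) and 0.13 (Psmg2), with a median of 0.02. Psma4 was at 138, 146 and 154 CPM in overexpression, against 138, 145 and 144 CPM in empty vector libraries (log2FC 0.04, SE 0.06). Psmc1 was at 227, 246 and 236 CPM in overexpression, against 231, 229 and 234 CPM in empty vector libraries (log2FC 0.03, SE 0.05). Psmf1 was at 72.8, 75.3 and 72.4 CPM in overexpression, against 71.0, 70.6 and 69.8 CPM in empty vector libraries (log2FC 0.06, SE 0.06). The groups overlapped for Psma4 and Psmc1, and the 3 overexpression libraries of Psmf1 were above empty vector by a margin too small to pass. Psmg4 alone had an unadjusted p below 0.05 (0.0295 in edgeR's quasi-likelihood F test, adjusted p = 0.714), at 8.996, 9.18 and 7.29 CPM in overexpression, against 9.88, 10.0 and 11.6 CPM in empty vector libraries, and DESeq2 and limma-voom called none of the 45 either.

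Whether the genes responded differently to silencing than to overexpression was tested in 1 fit of all 12 libraries. The response to silencing was lower in 17 genes and higher in 6, where 22.7% of all 14604 genes tested were lower and 20.4% higher. Psma4 had the largest difference (−1.24, adjusted p = 1.1e-09), followed by Psmc1 (−0.68), Psma3 (−0.45), Psmc3 (−0.42), Psmd7 (−0.41) and Psma7 (−0.40). The 6 with a higher response were Psmg4 (0.50), Psmf1 (0.46), Psme4 (0.36), Psmd5 (0.35), Psmb4 (0.29) and Psmd13 (0.25). Their number was 3 without scrambled replicate 3, empty vector replicate 2 or empty vector replicate 3. Psmc3ip did not pass (0.40). As none of the 45 genes passed in overexpression, these differences largely repeat silencing against scrambled from the same libraries. Psma4, for example, was at −1.24 here and −1.21 there. They are thus no separate evidence, and they carry the level of the scrambled control. Psma7, at −0.40 here, was at −0.01 in silencing against empty vector.

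Genes that work with the proteasome but carry no Psm symbol were read in the same fits. In silencing 7 of 12 such partners were lower than scrambled and 1 higher (median log2FC −0.23), which is 58.3% lower and 8.33% higher, against 28.5% lower and 26.2% higher over all genes. Pomp, the chaperone that matures the core, was at 149, 122 and 150.4 CPM in silencing, against 216, 209 and 196 CPM in scrambled and 156, 158 and 158 CPM in empty vector libraries. Silenced libraries were below both controls without overlap (log2FC −0.57, SE 0.08, adjusted p = 8.0e-05), though against empty vector the difference did not pass (−0.16, adjusted p = 0.0623). The deubiquitinase Uchl5 (−0.49), the importin Ipo9 (−0.38) and Akirin2 (−0.26), both of nuclear import of proteasomes, the stabilising factor AI314180 (−0.24), known as Ecpas, the small lid subunit Sem1 (−0.23) and Zfand5 (−0.24) were lower too. The stress-induced Zfand2a was higher (0.49). The ubiquitin receptor Adrm1 (−0.04), the deubiquitinase Usp14 (0.09), Txnl1 (0.01) and Ube3c (−0.07) did not pass.

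The transcription factor Nfe2l1, known as NRF1, drives proteasome genes when proteasome activity is short. It was at 205, 183 and 191 CPM in silencing, against 362, 333 and 316 CPM in scrambled and 352, 362 and 358 CPM in empty vector libraries. The fall was clear of both controls (log2FC −0.82, SE 0.06, adjusted p = 5.6e-07). Of the 11 genes of its pathway, 5 were lower (Nfe2l1, Nfe2l3 at −1.40, Mafk at −0.47, Vcp at −0.33 and Ngly1 at −0.32) and 2 higher (Syvn1 at 0.23 and Sel1l at 0.19). That is 45.5% lower and 18.2% higher, against 28.5% and 26.2% over all genes, and the median log2FC of the 11 was −0.0018. The mean of 1 of the 11 genes was below 1 CPM in silencing, against 0 genes in each other group. Levels of Nfe2l3 are not given here, so its fall is no firm statement. Vcp extracts Nfe2l1 from the endoplasmic reticulum, and Ngly1 removes its sugars. Between the controls Nfe2l1 was at −0.09 and did not pass. Of the 11 pathway genes, 4 were higher and 3 lower in scrambled than in empty vector libraries (36.4% and 27.3%). Of the 8 targets of the related factor Nfe2l2, 5 were higher and 1 lower in scrambled than in empty vector libraries, with Slc7a11 at 2.09 and Nqo1 at 0.88. That is 62.5% higher and 12.5% lower, against 21.3% and 21.8% over all genes. In silencing against scrambled 3 of these 8 targets were higher and 1 lower (37.5% and 12.5%, against 26.2% and 28.5% over all genes).

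Of the ubiquitin genes and their activating enzymes that were read, Rps27a (−0.45) and Ubb (−0.31) were lower in silencing, and Uba1 (0.05) and Uba6 (−0.17) did not pass. Of the shuttle factors that were read, Ubqln2 was lower (−0.18), Ubqln4 (0.46) and Ddi2 (0.40), which is also the protease that cuts Nfe2l1, were higher, and Rad23b (0.05) and Ubqln1 (−0.04) did not pass. Of the immunoproteasome genes, Psmb10 was lower (−0.44) and Psmb8 higher (1.27), and Psmb9 did not pass (0.41). Psmb8 was at 0.866, 1.64 and 1.33 CPM in silencing, against 0.511, 0.357 and 0.711 CPM in scrambled libraries, with at most 30 counts in a library, too low for a firm statement. In the COP9 signalosome, a relative of the lid that acts on cullins, 3 of 9 genes were higher (33.3%, against 26.2% of all genes) and 1 lower (11.1%, against 28.5%). In overexpression none of the genes named here from these lists passed the test.

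**Figure D4:**
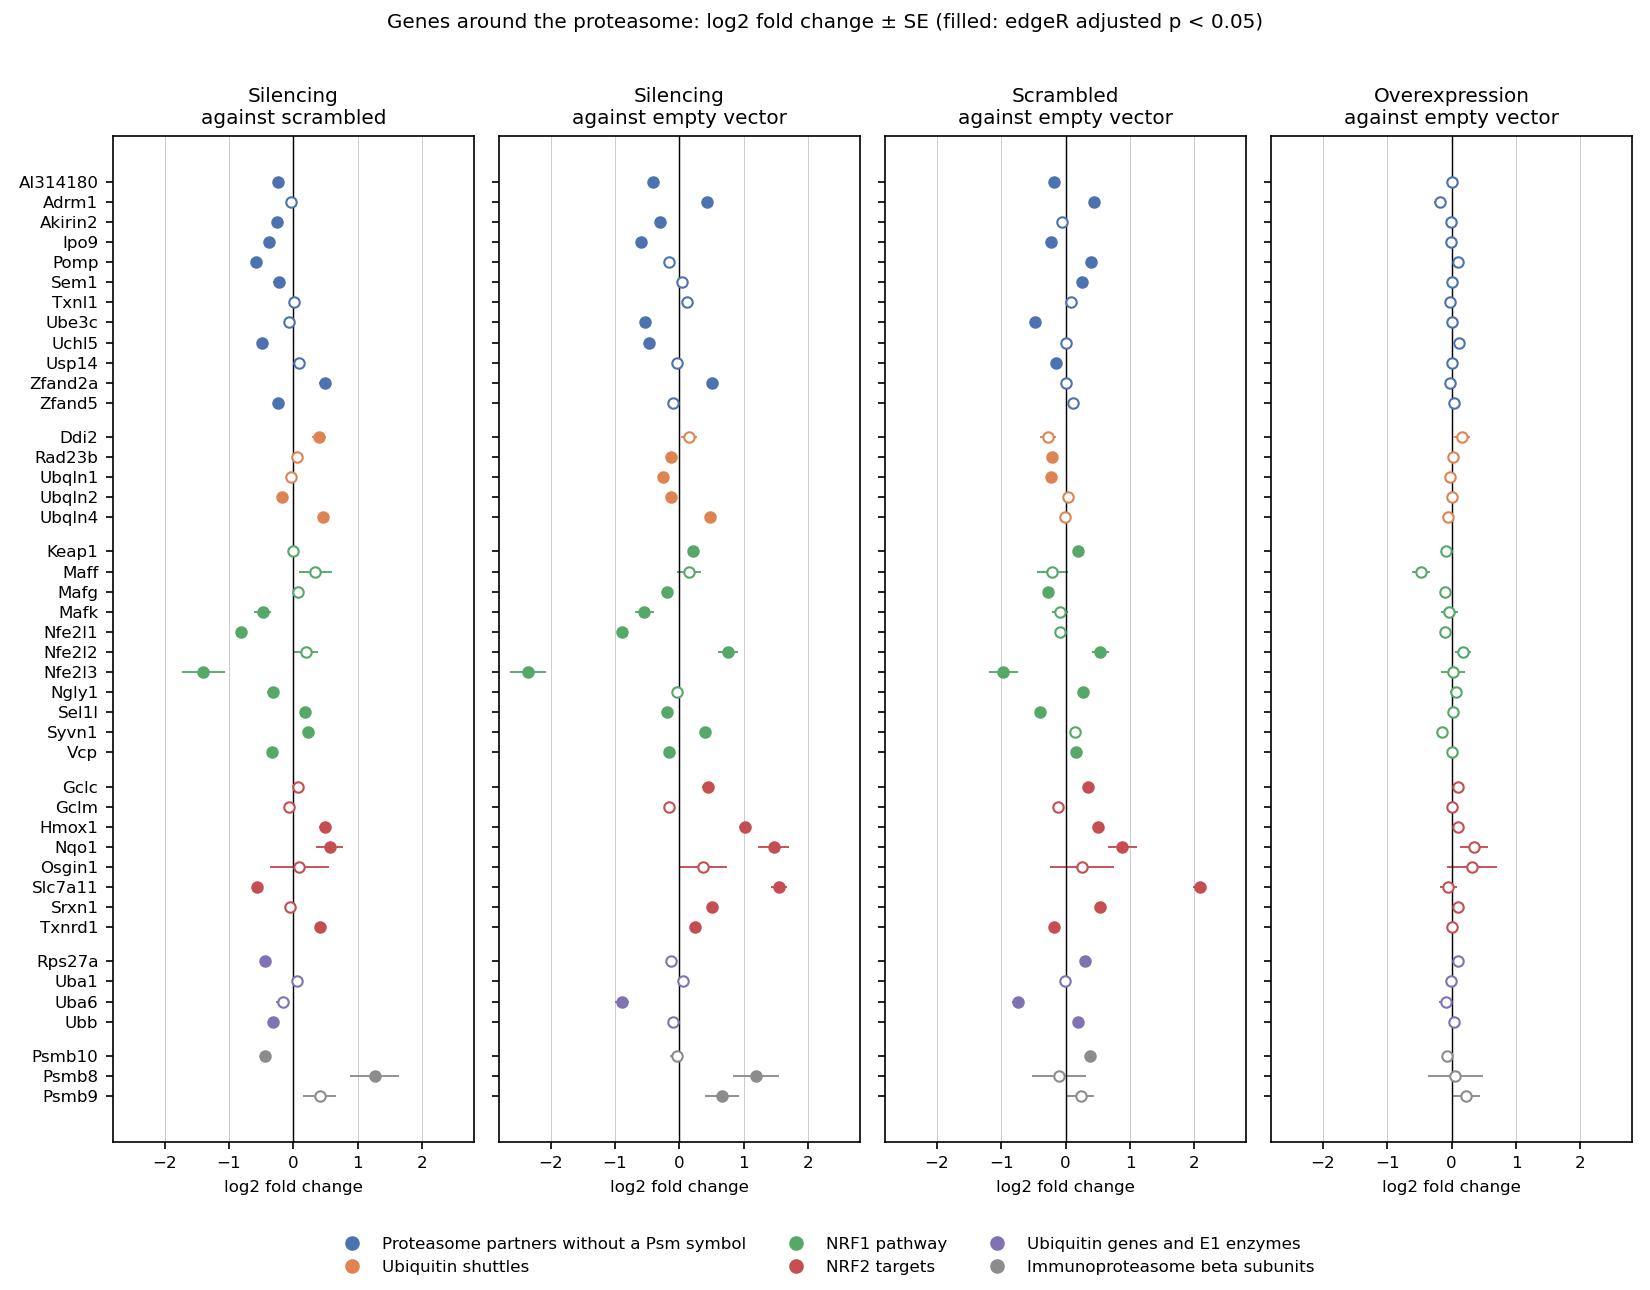
log2 fold change ± SE of genes around the proteasome, grouped by list from top to bottom, in 4 comparisons of 3 libraries with 3. Filled points had an edgeR adjusted p below 0.05, and the overexpression panel has none, while Nfe2l1 and Pomp stand left of 0 in silencing against scrambled.

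Proteasome promoters were read for the antioxidant response element that Nfe2l1 and Nfe2l2 bind, with the letters TGACNNNGC, and for CCAAT, each on both strands. RefSeq windows of 250 bases before to 50 after the start site on GRCm38.p6 were at hand for 39 of the 47 genes, 42 windows in all. TGACNNNGC was in 14.3% of them, against 12.4% of all 32851 windows and 14.0% of those of genes tested in silencing, and CCAAT in 33.3%, against 37.4% of all windows and 37.6% of those of tested genes. The 6 genes with TGACNNNGC were Psmb5, Psmb6, Psmc6, Psmd9, Psmd12 and Psme4. Of these, 4 were higher and 1 lower in scrambled than in empty vector libraries, against 21 higher and 1 lower of 32 tested genes without it. The stretches of 3 genes that rose there are shown 5′ to 3′ with TGACNNNGC in capitals.
Psmb5, chr14:54618014-54618062, minus strand: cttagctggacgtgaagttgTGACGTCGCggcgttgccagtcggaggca
Psmb6, chr11:70525328-70525376, plus strand: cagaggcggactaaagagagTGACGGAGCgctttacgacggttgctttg
Psmd9, chr5:123228139-123228187, plus strand: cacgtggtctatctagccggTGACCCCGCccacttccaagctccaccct

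These stretches run from −67 to −19 of the start site in Psmb5, from −29 to 19 in Psmb6 and from −51 to −3 in Psmd9. A match of letters is no evidence of binding.

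Markers of other cell types moved with the groups, and their part in the results was not tested. Oligodendrocyte markers summed to 82.4 to 89.8 CPM in silencing, against 30.8 to 41.2 CPM in scrambled and 44.6 to 45.6 CPM in empty vector libraries, with 4 of 5 higher and Mog lower than scrambled. Precursor markers summed to 45.9 to 86.3 CPM in silencing, against 23.4 to 43.9 CPM in scrambled and 25.04 to 43.2 CPM in empty vector libraries. Astrocyte markers summed to 322 to 656 CPM in silencing, against 333 to 599 CPM in scrambled and 256 to 357 CPM in empty vector libraries, with none of 7 called in silencing. The 8 microglia markers summed to no more than 14.1 CPM in any library, with Tmem119 at 1 count or fewer in each. Endothelial and mural markers summed to 9.43 to 10.3 CPM in silencing, against 3.91 to 5.12 CPM in scrambled and 6.66 to 8.24 CPM in empty vector libraries, and Cldn5 was at 0 in the silenced libraries. The 7 pan-neuronal markers summed to 5934 ± 285 CPM in silencing, against 6667 ± 141 CPM in scrambled and 6645 ± 186 CPM in empty vector libraries. In silencing 4 were lower and 1 higher than in scrambled (57.1% and 14.3%, against 28.5% and 26.2% over all genes). Excitatory markers summed to 333 ± 16.2 CPM in silencing, 323 ± 24.1 CPM in scrambled and 505 ± 16.3 CPM in empty vector libraries. Between the controls 4 of 6 were lower in scrambled and 0 higher, though 1 had a positive log2FC. All 6 GABAergic markers were higher in scrambled. Over all genes 21.8% were lower and 21.3% higher there. In silencing against scrambled 1 excitatory marker was higher and 1 lower, and 2 GABAergic markers were higher and 1 lower.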

How the data were processed

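Bulk RNA was sequenced from 12 libraries, 3 in each of 4 groups. The authors deposited estimated counts per gene, one table for all libraries. Per the labels, their processing notes name Salmon, DESeq2 and mm10 without versions, and the study's methods name other steps, so which step gave the deposited counts is not stated. Of the values, 38.1% were not whole (tolerance 1e-06), and all were rounded. Genes were filtered with filterByExpr of edgeR 4.0.16 (R 4.3.3), scaled by TMM and compared with its quasi-likelihood F test (robust option), with Benjamini-Hochberg adjustment over all genes tested. The 47 genes and the lists of related genes were chosen with earlier results of these data known. Values by library are given for the 10 largest called changes in each comparison, the catalytic subunits, genes called with opposite signs, chaperones, activators and PI31, with others added. Alternatives were DESeq2 1.42.0, limma-voom (limma 3.58.1), other scalings and filters, a replicate block, a GC content and length offset, left-out libraries and the other control. The code was tested on simulated data. Some genes of the related lists are not reported here. Lengths and GC content came from GENCODE vM21 for 87.8% of genes, and 12 of the 47 genes share exon bases with another gene.

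The labels number replicates 1 to 3 in each group. Deviations from the group means over 11019 genes correlated between equally numbered silencing and scrambled libraries at r = 0.465, 0.328 and 0.157, each above 0.1, which was the bar for a pairing, though silencing replicate 2 and scrambled replicate 3 correlated at 0.331. The values reported come from the fit without the block, and the block was an alternative. For overexpression and empty vector r was 0.018, −0.113 and 0.044, and for scrambled and empty vector −0.427, −0.079 and −0.265.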

Additional observations from a re-analysis of the deposited data

How the results depend on the processing

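In silencing against scrambled, library size alone in place of TMM gave 13 proteasome genes higher and 12 lower (median log2FC −0.0023), where the median of all genes moved to 0.0976. With empty vector as the control 18 were higher and 7 lower (median 0.0785), and the sign turned in 14 genes: Psma6 (0.0774), Psmb11 (−0.1759), Psmd10 (0.1432) and Psmg1 (0.0031), called against neither control, and Psma1 (0.0826), Psma5 (0.0453), Psmb3 (0.3575), Psmb5 (0.1547), Psmb6 (0.2243), Psmc2 (0.1295), Psmc5 (0.0056), Psmd4 (0.0715), Psmd6 (0.0169) and Psmd9 (0.1243). Leaving out single libraries gave 5 to 7 higher and 14 to 21 lower genes, with medians of −0.1108 to −0.0562. The replicate block gave 7 higher and 22 lower, adding Psma6 and Psmc6, and removed no call. In scrambled against empty vector, 1 gene was lower under DESeq2, with all 12 libraries in one fit and with the replicate block. The offset for GC content and length gave 16 higher (median 0.0978) and turned Psmg3 (−0.0971), Psme2 (−0.2388) and Psme4 (0.0301). With block and offset together 10 were higher and 0 lower (median 0.0982), with Psmg3 at −0.0973 and Psme4 at 0.0261. Leaving out single libraries gave 27 to 30 higher and 0 to 3 lower, with 0 lower without scrambled replicate 2 or empty vector replicate 2. For the difference between the responses, library size alone gave 11 lower (median 0.0443), the offset a median of −0.1273 and block and offset −0.1278. Leaving out single libraries gave 3 to 7 higher and 12 to 19 lower, with medians of −0.1196 to −0.0113. The cause of these shifts was not tested. In overexpression no proteasome gene passed under any alternative, with medians of 0.0063 to 0.0407 when single libraries were left out. Precision was limited by 3 libraries a group, and for Psmb11, Psmc3ip, Psma8 and Psme2b also by their low counts.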
